A study of Mus musculus with 5 samples.

Results

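The 58 genes described here encode the proteins from which fibroblasts build connective tissue, together with surface proteins by which fibroblasts are recognised. They comprise genes for collagens, basement membranes, elastic fibres, small proteoglycans, adhesive glycoproteins and proteins that process or protect matrix, and fibroblast markers. They were taken by symbol from a list, all 58 were found among the 41388 genes of the files, and their read counts were compared between macrophages sorted from the outer and the inner layer of the mouse aorta. Collagens are secreted as procollagens, trimmed outside the cell, assembled into fibrils and crosslinked by lysyl oxidases. Small leucine-rich proteoglycans such as decorin and lumican coat these fibrils and set their spacing, elastin and fibulins form the elastic fibres that let an artery recoil, and laminins and type IV collagen form the basement membranes beneath endothelium and around smooth muscle. In the aorta the adventitia is the fibroblast-rich coat, whereas smooth muscle makes most of the matrix of the media.

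The 3 adventitia libraries came from ApoE-/- mice on a C57BL/6 background given 28 weeks of a high fat diet, 6 mice making up the group, from the adventitia of the whole aorta, its abdominal part included, by a sort for live (PI-) CD64+ cells. Each of the 2 intima libraries was made from 5 pooled C57BL/6 mice for which no mutation or diet is given, and their cells were sorted as live (PI-) CD64+ CD11c+ MHC II+ cells from the thoracic aorta after the adventitia had been pulled away. The ages of the mice are not given in the labels. Layer, Apoe genotype, diet, aortic segment and sort gate all differ between the groups and cannot be told apart. How the 6 ApoE-/- mice were divided among the 3 adventitia libraries is not stated, so the p-values below measure the spread between these libraries, which may be technical in part. In such sorted bulk samples, fewer cells of a type and less RNA per cell cannot be told apart.

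The libraries held 3941381, 10076142 and 10054377 reads in adventitia and 14970204 and 20806925 reads in intima. Apoe, the disrupted gene, had 18.2, 18.1 and 10.9 normalised CPM (read counts set relative to library size, after scaling between libraries) in adventitia, against 5563 and 4409 in intima, so the libraries followed their genotype labels. The 16 macrophage markers examined were detected in every library and summed to 29081, 34195 and 42215 normalised CPM in adventitia, against 42337 and 26544 in intima. Mesothelial markers, for the cells that line body cavities, stood apart in 1 library: the 8 of them summed to 10.9, 4.0 and 4.0 in adventitia, against 0.784 in intima replicate 1 and 497 in intima replicate 2. Their part in the results below was not tested. Spread between replicates, as edgeR's common biological coefficient of variation, was 0.703 among the adventitia libraries and 1.28 between the intima libraries.

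Matrix and fibroblast genes took a small share of the reads in both layers, and the parts of that share held by Dcn and Fstl1 differed between the layers. They took 0.199, 0.189 and 0.344% of the reads in adventitia, against 0.276 and 0.519% in intima. The mean share was 0.244 ± 0.0868% in adventitia (SD, n = 3) and 0.398 ± 0.171% in intima (SD, n = 2), and an exact two-sided permutation test over the libraries gave p = 0.4, the smallest p that this design allows being 0.1. Among the reads of the 58 genes, Dcn, which encodes the proteoglycan decorin, supplied 17.1, 17.2 and 20.4% in adventitia, against 3.87 and 0.297% in intima. Fstl1, which encodes the secreted glycoprotein follistatin-like 1, supplied 0.815, 0.236 and 1.81% in adventitia, against 17.8 and 12.7% in intima. The proteoglycan decorin thus held a larger share in every adventitia library, and follistatin-like 1 in every intima library. Neither led in every library of its layer. Ly6a supplied 21.9% in adventitia replicate 2, and Gsn supplied 21.4% in intima replicate 2 but 3.40% in intima replicate 1.

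**Figure D1:**
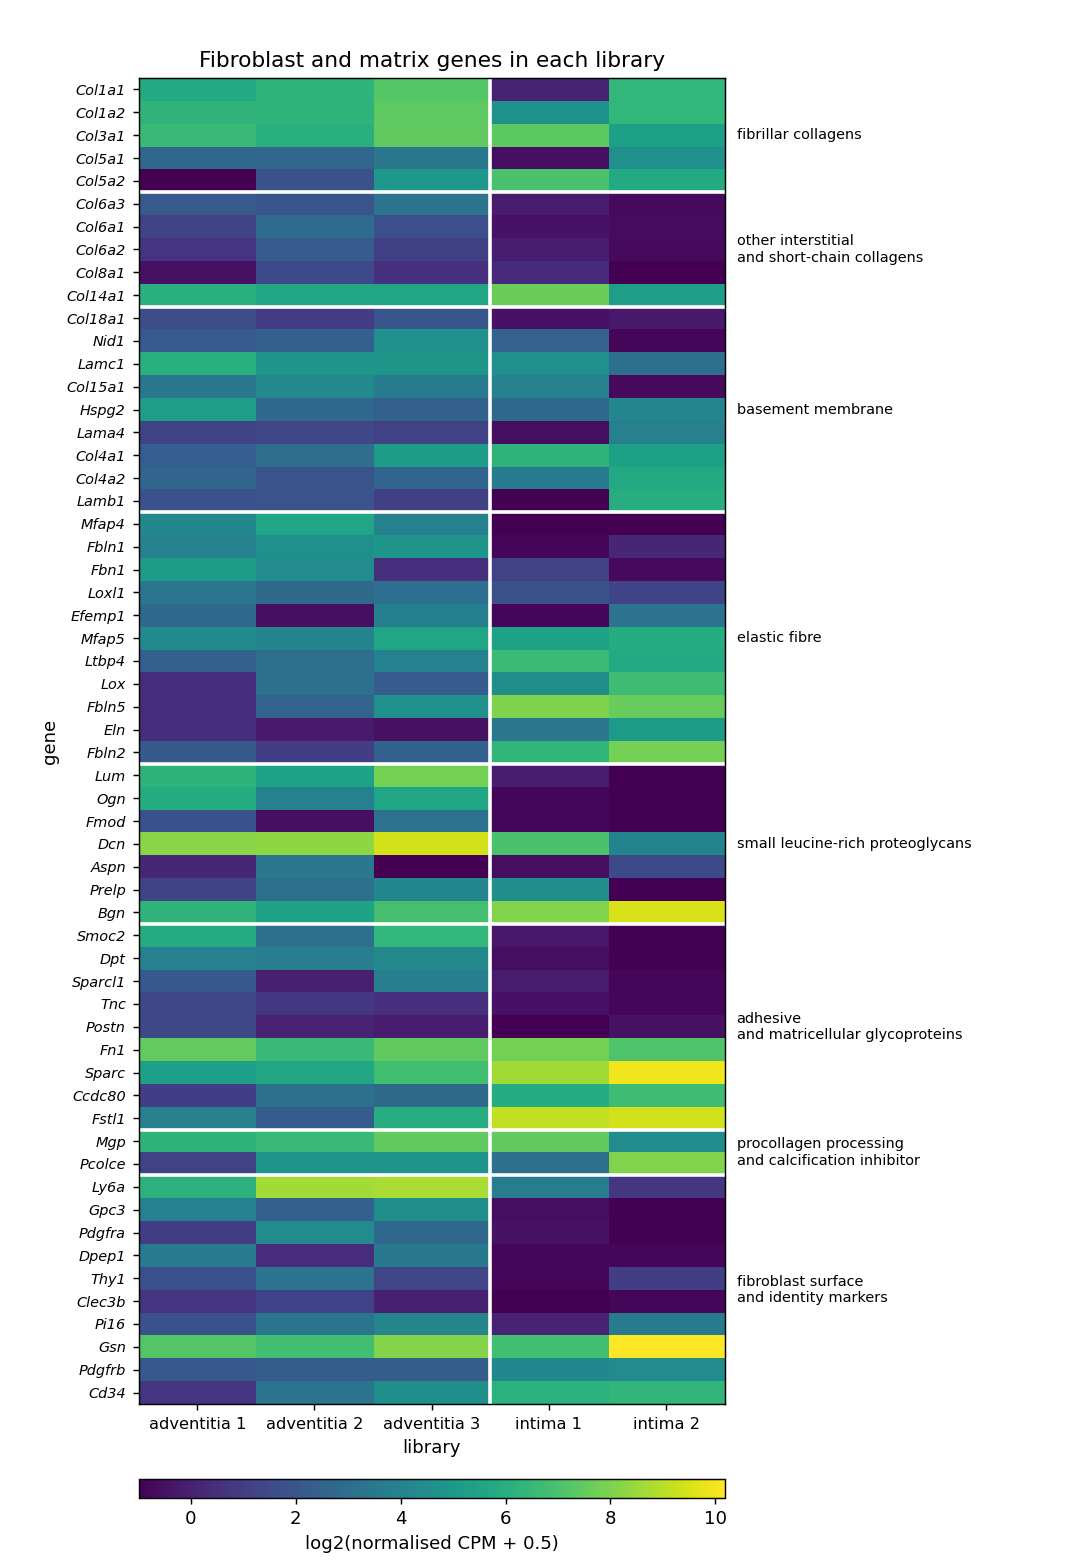
Level of each of the 58 genes in each library, as log2 of normalised CPM plus 0.5, with 1 row per gene grouped by role and 1 column per library. Lum, Ogn, Smoc2, Mfap4 and Dpt are bright in all 3 adventitia columns and dark in both intima columns, whereas Sparc, Fstl1, Fbln2 and Fbln5 show the opposite.

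Of the 58 genes, 57 had enough reads to be tested. With the quasi-likelihood test of edgeR, 2 of the 57 were higher in adventitia at an adjusted p under 0.05, where 0.149% of the 13408 genes tested were called in that direction, and 3 were lower, where the background was 0.522%. The other 52 did not pass. The genes called higher were the proteoglycans Lum and Ogn, and those called lower were the elastic fibre glycoprotein Fbln2 and the glycoproteins Sparc and Fstl1. The median log2 difference (adventitia minus intima) was 0.92 over the 57 genes and -0.14 over all genes tested, with 34 of the 57 above 0 and 23 below. Without the filter on low counts the order turned, with 0.76 over the set and 1.86 over all genes. In 22 of the 57 every adventitia library exceeded both intima libraries (38.6%, where the background was 23.2%), and in 14 every adventitia library was below both (24.6%, against a background of 17.7%). The groups overlapped in the other 21, while 40.9% of all genes tested were without overlap in either direction. At an unadjusted p under 0.05, 16 of the 57 were higher and 13 lower. For counts at this unadjusted threshold, here and below, the share over all genes is not given, so they cannot be set against a background. DESeq2 called 13 of them higher (background 5.22%) and 9 lower (background 3.65%), and voom of limma called 10 higher (background 4.66%) and 6 lower (background 1.6%), each list holding the 5 genes called by edgeR. Without adventitia replicate 1, the shallowest library, edgeR called 0 of the genes in either direction and 10 of all genes, with 14 of the set higher and 10 lower at an unadjusted p under 0.05. Without adventitia replicate 3 it called 0 higher, with 13 higher at an unadjusted p under 0.05, and 4 lower. The shares called over all genes were 0.0392% higher and 0.321% lower without adventitia replicate 3. They were 0.0940% and 0.313% without adventitia replicate 2. Without adventitia replicate 2 edgeR called 3 higher and 2 lower. Leaving out an intima replicate left a lone intima library, so only the median log2 difference is given here for those fits. Without intima replicate 1 this median was 1.65 for the set and 0.54 for all genes. Without intima replicate 2 it was 1.87 for the set and 0.62 for all genes.

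**Figure D2:**
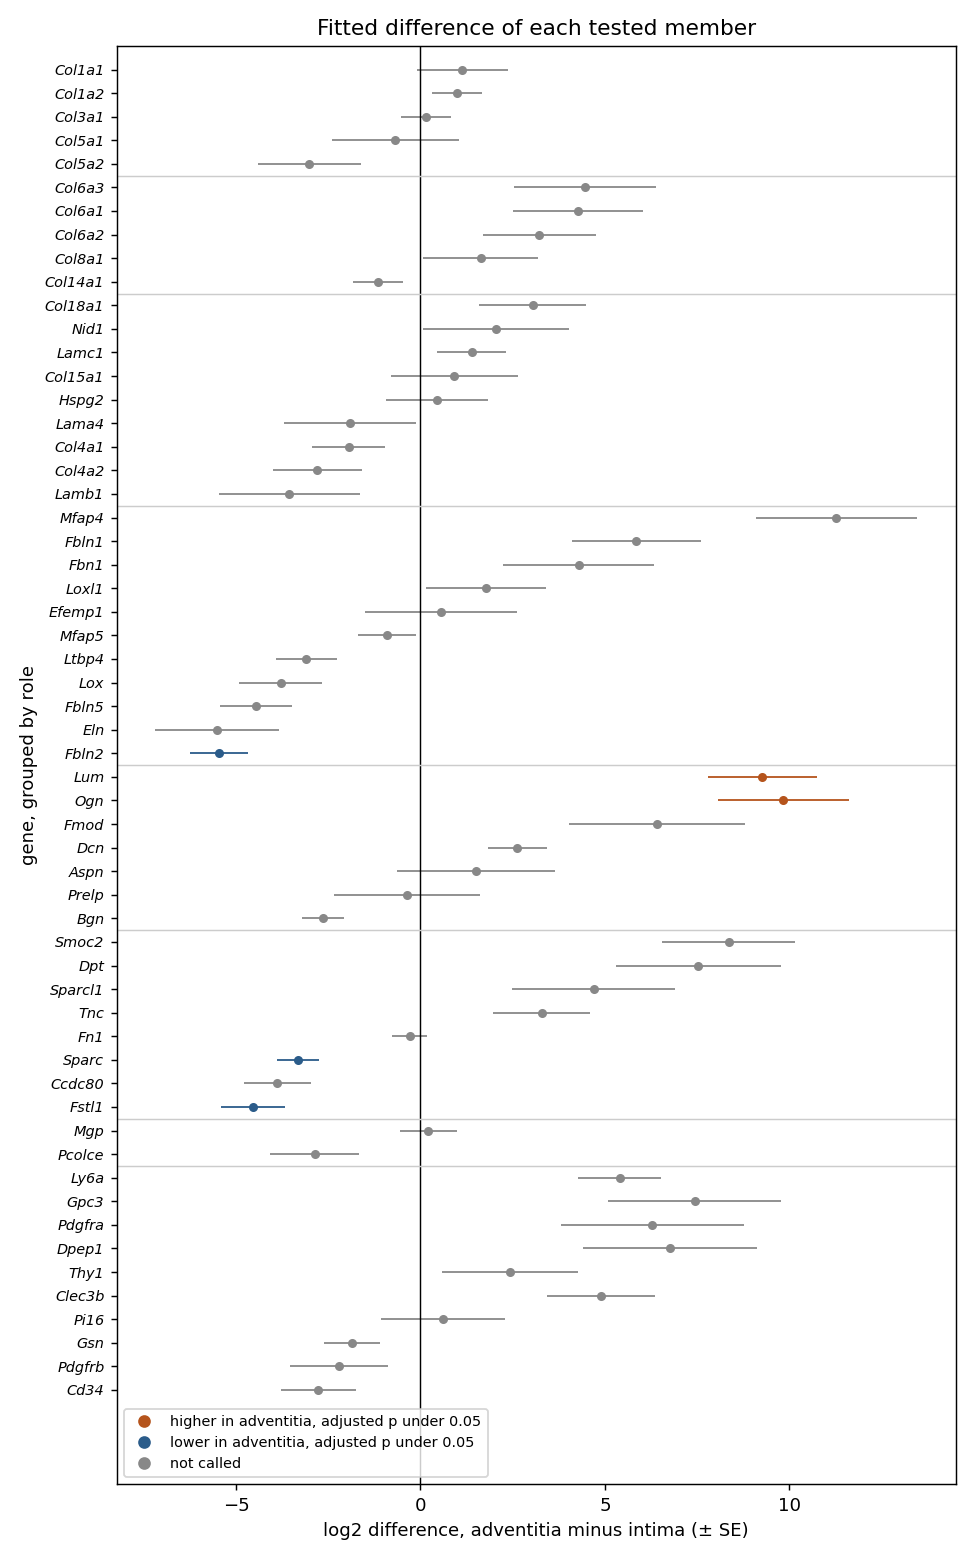
Fitted log2 difference (adventitia minus intima, points) with its standard error (lines) for the 57 tested genes, grouped by role. The 2 genes called higher and the 3 called lower are coloured, and the fitted values of genes with 3 or fewer intima reads, such as Mfap4 and Ogn, depend on a prior count.

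Of the 5 genes called, 4 had an entry in the RefSeq promoter table (GRCm38.p6), as did 37 of all 58, and Ogn alone had 250 bases before its start that no annotated exon touches. That promoter is printed, 5′ to 3′ on the gene's own strand, because Ogn is a gene called higher in adventitia and nearly without reads in intima. Capitals mark matches to a short set of promoter motifs searched on both strands.
Ogn: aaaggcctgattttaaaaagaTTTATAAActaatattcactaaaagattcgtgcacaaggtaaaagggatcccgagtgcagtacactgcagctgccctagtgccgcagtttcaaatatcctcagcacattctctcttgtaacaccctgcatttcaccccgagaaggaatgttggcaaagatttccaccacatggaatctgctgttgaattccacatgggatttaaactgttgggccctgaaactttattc
The stretch lies at chr13:49607765-49608014 on the plus strand, and the RefSeq start that follows it lies 56 bases before the start of the gene in the files. The motifs searched were the TATA box (TATAAA), the CCAAT box (CCAAT), the GC box (GGGCGG), the AP-1 site (TGANTCA) and the CArG box of serum response factor. The capitals mark a pair of overlapping TATA box matches on opposite strands, 227 to 222 and 229 to 224 bases before the RefSeq start, and therefore far upstream of where a TATA box usually works. Of all 32851 promoters of this length, 12.4% held the TATA box letters, 33.8% the CCAAT box, 32.7% the GC box, 6.75% the AP-1 letters and 1.47% the CArG box. The Ogn stretch had 42.0% G and C, where the median over all promoters was 52.4%. A match to such short letters describes the sequence only.

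The small leucine-rich proteoglycans held both genes that edgeR called higher in adventitia. In 4 of the 7 every adventitia library was above both intima libraries, as in 23.2% of all genes tested. DESeq2 called 3 of the 7 higher (5.22% over all genes) and 1 lower (3.65%). The counts with voom were also 3 higher (4.66%) and 1 lower (1.6%). Lum (chr10, 97565501 to 97572703, GRCm38) encodes lumican, which binds collagen fibrils and limits their thickness. It had 74.2, 41.4 and 228 normalised CPM in adventitia, against 0.392 and 0 in intima, where 5 reads were counted in all. The lowest adventitia library stood far above the higher intima library, although the adventitia libraries differed severalfold among themselves. The log2 difference was 9.27 ± 1.47 (SE, adjusted p = 0.0148, edgeR). This call was lost without adventitia replicate 1 (adjusted p = 0.174, edgeR) and without adventitia replicate 3 (adjusted p = 0.139, edgeR), and the adjusted p ranged between 5.05e-13 and 0.174 over the 14 alternatives.

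Ogn (chr13, 49608071 to 49624500, the plus-strand gene whose promoter is printed above) encodes osteoglycin, a small proteoglycan found in collagen-rich tissue. It had 59.9, 14.7 and 47.5 normalised CPM in adventitia, against 0.0784 and 0 in intima, where a single read was counted. All 3 adventitia libraries were above both intima libraries, and adventitia replicate 2 was the lowest of the 3. The pooled level was 1176 times higher in adventitia, with a 95% interval for counting error alone of 211 to 46451, and the adjusted p was 0.0328 (edgeR). The call was lost without adventitia replicate 1 (0.225), adventitia replicate 3 (0.139) or intima replicate 2 (0.0522), these being adjusted p-values of edgeR, and the adjusted p ranged between 2.4e-08 and 0.225 over the alternatives.

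Dcn, the neighbour of Lum 47.3 kb away on chromosome 10, was the most abundant proteoglycan in adventitia per length of transcript, at 164, 156 and 337 RPKM (read counts relative to gene length and library size), against 51.3 and 7.40 in intima. Its normalised CPM were 294, 311 and 706 in adventitia, against 125 and 16.2 in intima. The groups did not overlap, yet Dcn was not called by edgeR, at a log2 difference of 2.63 ± 0.80 (SE, adjusted p = 0.113, edgeR). It was called higher by DESeq2 (adjusted p = 0.0270) and voom (adjusted p = 0.0436). Fmod, which encodes fibromodulin, a collagen-binding relative of lumican, had 3.06, 0.190 and 8.41 normalised CPM in adventitia, against 0.0784 and 0 in intima, from a single intima read. Bgn, which encodes biglycan, the closest relative of decorin and also a product of smooth muscle, went the other way, with 77.4, 44.7 and 118 normalised CPM in adventitia, against 264 and 734 in intima. Its ranges did not overlap, and its log2 difference was -2.64 ± 0.56 (SE, adjusted p = 0.0703, edgeR). It was called lower by DESeq2 (adjusted p = 0.0070) and voom (adjusted p = 0.0458). Prelp, whose product anchors basement membranes to collagen, had 1.97, 8.28 and 17.1 in adventitia, against 23.5 and 0 in intima. Aspn, which encodes asporin, had 0.656, 10.2 and 0 in adventitia, against 0.157 and 2.37 in intima. Both of these overlapped between the groups, and each had a library with no read.

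**Figure D3:**
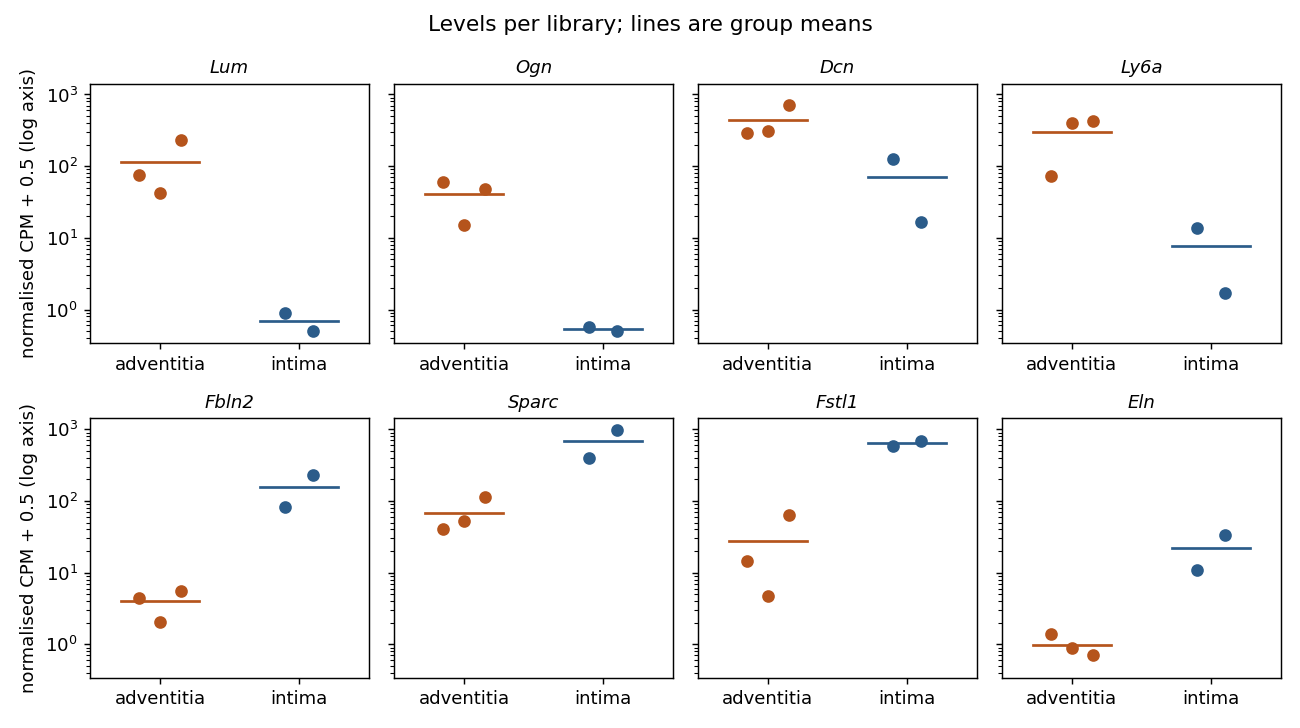
Normalised CPM plus 0.5 (log axis) of 8 genes in each adventitia library (left in each panel) and each intima library (right), with lines at the means of the groups. Lum and Ogn, called higher, and Dcn and Ly6a, not called, lie above in every adventitia library, and Fbln2, Sparc and Fstl1, called lower, and Eln, not called, lie below. Calls are those of edgeR.

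The elastic fibre genes went in both directions. Of the 11, Fbln2 alone was called by edgeR, lower in adventitia. DESeq2 called 3 of the 11 higher (5.22% over all genes) and 5 lower (3.65%). With voom 2 were called higher (4.66%) and 3 lower (1.6%). In 5 of the 11 every adventitia library was below both intima libraries (17.7% over all genes), and in 3 every one was above (23.2% over all genes). The summed level of the 11 was 115, 138 and 160.2 normalised CPM in adventitia, against 516 and 689 in intima, with no overlap. Fbln2 (chr6, 91212455 to 91272540) encodes fibulin-2, a calcium-binding glycoprotein of elastic fibres and basement membranes. It had 3.94, 1.52 and 5.00 normalised CPM in adventitia, against 81.1 and 228 in intima. The groups were well separated, and the log2 difference was -5.47 ± 0.79 (SE, adjusted p = 0.00797, edgeR). The call was lost without adventitia replicate 1 (adjusted p = 0.166, edgeR) and without intima replicate 2 (adjusted p = 0.0531, edgeR), with a range of 5.46e-09 to 0.166 over the alternatives.

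Fbln5, whose product fibulin-5 is needed for elastic fibre assembly, had 0.875, 5.52 and 23.9 normalised CPM in adventitia, against 257 and 194 in intima (log2 difference -4.46 ± 0.98 SE, adjusted p = 0.0768, edgeR). Eln, which encodes elastin itself, had 0.875, 0.381 and 0.200 in adventitia, against 10.3 and 33.4 in intima (log2 difference -5.52 ± 1.67 SE, adjusted p = 0.113, edgeR). Both were lower in every adventitia library than in either intima library. Neither passed the test of edgeR, while DESeq2 and voom called both lower. Ltbp4, for the latent TGF-beta binding protein that works with fibulins on elastin, had 4.81, 7.71 and 14.6 in adventitia, against 97.1 and 57.6 in intima (adjusted p = 0.0900, edgeR). Lox, for the lysyl oxidase that crosslinks elastin and collagen, had 0.875, 8.28 and 4.30 in adventitia, against 22.3 and 103 in intima (adjusted p = 0.111, edgeR). The lysyl oxidase relative Loxl1 had 9.85, 6.85 and 8.01 in adventitia, against 2.90 and 1.91 in intima (adjusted p = 0.582, edgeR). The related enzymes Lox and Loxl1 thus lay on opposite sides, without overlap between groups in either, and neither was called by edgeR. DESeq2 called Ltbp4 and Lox lower.

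Mfap4, which encodes a microfibril-associated protein that binds elastin and collagen, was the only one of the 58 genes with no read in either intima library. It had 18.4, 48.0 and 14.4 normalised CPM in adventitia, which is at least 317-fold higher than the level that 3 reads over both intima libraries would give. Its adjusted p was 0.0560 (edgeR), just short of the threshold, and it was called under 3 other scalings (adjusted p = 0.0399, 0.0469 and 0.0479, edgeR), with a range of 2.05e-08 to 0.215 over the alternatives. Fbln1, for fibulin-1, had 15.1, 23.7 and 28.0 in adventitia, against 0.0784 and 0.655 in intima (log2 difference 5.85 ± 1.75 SE, adjusted p = 0.112, edgeR). Fbn1, for fibrillin-1, the main protein of microfibrils, had 34.3, 20.6 and 0.901 in adventitia, against 1.80 and 0.101 in intima, so that adventitia replicate 3 lay within the intima range, and 20.1% of its exon bases are shared with another annotated gene. Mfap5, for a microfibril glycoprotein, had 19.7, 15.6 and 46.9 in adventitia, against 43.0 and 60.6 in intima, and Efemp1, for fibulin-3, had 6.13, 0.190 and 13.9 in adventitia, against 0.0784 and 9.01 in intima. Both of these overlapped. The fibulins were therefore split, with Fbln1 above in every adventitia library and Fbln2 and Fbln5 below.

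The adhesive and matricellular glycoproteins, which bind cells to matrix or modulate that binding, held the other 2 genes lower in adventitia. Sparc (chr11, 55394500 to 55420080, minus strand) encodes osteonectin, a collagen-binding protein that is abundant in endothelium and fibroblasts. It had 39.6, 51.6 and 112 normalised CPM in adventitia, against 391 and 970.3 in intima. No adventitia library reached the lower intima library, and the log2 difference was -3.33 ± 0.57 (SE, adjusted p = 0.0239, edgeR). The call was lost without adventitia replicate 1 (0.215), adventitia replicate 2 (0.0950) or intima replicate 2 (0.0653), as adjusted p-values of edgeR, with a range of 1.25e-07 to 0.215 over the alternatives.

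Fstl1 (chr16, 37776873 to 37836514) had 14, 4.28 and 62.6 normalised CPM in adventitia, against 576 and 691 in intima. The intima libraries were close to each other and the adventitia libraries were spread widely beneath them. The log2 difference was -4.55 ± 0.87 (SE, adjusted p = 0.0424, edgeR). The call was lost without adventitia replicate 1 (0.242), without intima replicate 2 (0.0606), with upper-quartile scaling (0.0632) and with reads thinned to equal depth (0.0582), as adjusted p-values of edgeR, and the range over the alternatives was 1.11e-12 to 0.242.

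Of the other 7 glycoprotein genes none was called by edgeR and Postn was not tested, while DESeq2 called Smoc2 and Dpt higher and Ccdc80 lower, and voom called Smoc2 and Dpt higher. Fn1, which encodes fibronectin, a product of macrophages as well as fibroblasts, had similar levels in both layers, at 179, 95.4 and 173 normalised CPM in adventitia, against 229 and 136 in intima (log2 difference -0.29 ± 0.48 SE, adjusted p = 0.789, edgeR). Smoc2, for a calcium-binding protein related to osteonectin, had 59.1, 8.18 and 84.2 in adventitia, against 0.314 and 0 in intima (log2 difference 8.36 ± 1.81 SE, adjusted p = 0.0763, edgeR). Dpt, for dermatopontin, which links decorin to collagen, had 14.2, 13.4 and 18.5 in adventitia, against 0.157 and 0 in intima, where 2 reads were counted. Smoc2 and Dpt thus followed the pattern of Lum and Ogn without passing the test, the adjusted p of Dpt being 0.111 (edgeR). Dpt was pooled 254 times higher in adventitia, with a 95% counting interval of 70.4 to 2100.1. Ccdc80, for a secreted matrix protein, showed the reverse, with 1.53, 8.28 and 6.81 in adventitia, against 60.7 and 104 in intima (adjusted p = 0.0868, edgeR). Tnc, for tenascin-C, had 2.19, 1.24 and 0.901 in adventitia, against 0.235 and 0.0504 in intima, and Sparcl1, a relative of Sparc, had 3.72, 0.476 and 13.3 in adventitia, against 0.392 and 0.0504 in intima. Postn, for periostin, a protein of remodelling tissue, was the gene with too few reads to test, at 2.19, 0.571 and 0.400 in adventitia, against 0 and 0.201 in intima. These last 3 were above in every adventitia library, at low levels except for Sparcl1 in adventitia replicate 3.

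The fibrillar collagens, the main load-bearing fibres of the adventitia, were not told apart between the layers: 0 of the 5 were called by edgeR, DESeq2 or voom, 0 had an unadjusted p under 0.05 with edgeR, and they summed to 232, 227 and 535 normalised CPM in adventitia, against 311 and 288 in intima. Col1a1 and Col1a2 encode the chains that join in type I collagen. Col1a1 had 56.0, 77.3 and 149 in adventitia, against 0.549 and 84.8 in intima (log2 difference 1.14 ± 1.24 SE, adjusted p = 0.656, edgeR). Col1a2 had 76.6, 76.8 and 169 in adventitia, against 24.8 and 83.1 in intima (log2 difference 1.00 ± 0.67 SE, adjusted p = 0.423, edgeR). Per transcript length, the ratio of Col1a1 to Col1a2 RPKM was 1.35, 1.86 and 1.62 in adventitia, against 0.0410 and 1.89 in intima, so that intima replicate 1 alone held one chain almost without the other. Without intima replicate 2, Col1a1 was called higher in adventitia (log2 difference 7.30, adjusted p = 0.0219, edgeR), and over the alternatives its adjusted p ranged between 0.0219 and 0.880. Col3a1, for type III collagen, had 93.2, 64.6 and 176 in adventitia, against 162 and 39.2 in intima (log2 difference 0.15 ± 0.67 SE, adjusted p = 0.935, edgeR). Its sign turned without intima replicate 2 (-0.63), without adventitia replicate 3 (-0.31), without a filter (-0.09) and with the replicate block (-0.04). Col5a1 and Col5a2 encode type V collagen, which starts fibril assembly. Col5a1 had 6.13, 5.90 and 10.3 in adventitia, against 0.157 and 23.8 in intima. Col5a2, which lies 24.6 kb from Col3a1, was the fibrillar gene without overlap, at 0, 2.95 and 30.4 in adventitia, against 124 and 57.2 in intima (adjusted p = 0.228, edgeR). It was called lower with the replicate block (adjusted p = 0.00233, edgeR) and without a filter (adjusted p = 0.0453, edgeR). Over the alternatives its adjusted p ranged between 0.00233 and 0.460.

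The type VI collagen genes, whose product forms beaded filaments around cells, had every adventitia library above, at low levels. Of the 5 genes of type VI and related collagens, 0 were called by edgeR, 2 were higher at an unadjusted p under 0.05, and DESeq2 called Col6a3 higher and voom 0. Col6a1 had 1.75, 7.04 and 2.80 normalised CPM in adventitia, against 0.235 and 0.151 in intima (adjusted p = 0.180, edgeR). Col6a2 had 1.09, 4.19 and 1.70 in adventitia, against 0.392 and 0.101 in intima. Col6a3 had 4.16, 3.33 and 9.21 in adventitia, against 0.392 and 0.101 in intima. Col6a1 and Col6a2 were both highest in adventitia replicate 2 and Col6a3 in adventitia replicate 3. The RPKM ratio of Col6a1 to its neighbour Col6a2 was 3.04, 3.20 and 3.13 in adventitia, against 1.14 and 2.85 in intima. The intima ratios rested on 3 against 5 reads in replicate 1 and 3 against 2 in replicate 2. That of adventitia replicate 1 rested on 8 against 5, so these ratios are too uncertain to compare the layers. Col14a1, for a fibril-associated collagen, was by far the most abundant of this group, at 67.2, 51.9 and 47.0 in adventitia, against 206 and 37.9 in intima. It overlapped between the layers (adjusted p = 0.350, edgeR), and its log2 difference of -1.14 turned to 0.68 without intima replicate 1. Col8a1, for a short-chain vascular collagen, had 0.219, 2.28 and 1.00 in adventitia, against 0.784 and 0 in intima.

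Of the 9 basement membrane genes, 0 were called by edgeR, DESeq2 or voom, and 1 was lower at an unadjusted p under 0.05 with edgeR. Col4a1 and Col4a2, which encode the network-forming type IV collagen and are transcribed away from each other on chromosome 8 with 22 overlapping bases, were lower in every adventitia library than in either intima library. Col4a1 had 4.59, 7.42 and 33.2 normalised CPM in adventitia, against 76.7 and 40.2 in intima (log2 difference -1.95 ± 0.98 SE, adjusted p = 0.264, edgeR). Col4a2 had 5.69, 3.14 and 5.80 in adventitia, against 12.1 and 55.5 in intima (log2 difference -2.79 ± 1.21 SE, adjusted p = 0.201, edgeR). The paired chains were not in a fixed proportion, their RPKM ratio being 0.784, 2.29 and 5.56 in adventitia, against 6.17 and 0.704 in intima. Lamc1, for the laminin chain shared by most laminins, had 68.5, 29.0 and 29.3 in adventitia, against 24.1 and 7.96 in intima, without overlap (log2 difference 1.4 ± 0.93 SE, adjusted p = 0.417, edgeR). Col18a1, the source of endostatin, had 2.63, 1.43 and 3.50 in adventitia, against 0.235 and 0.352 in intima, also without overlap.

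The other laminin chains and linkers depended on which intima library was read. Lamb1 had 3.06, 3.14 and 1.70 normalised CPM in adventitia, against 0 and 61.9 in intima. Lama4, for a laminin chain of vessel walls, had 1.75, 2.09 and 1.80 in adventitia, against 0.157 and 14.1 in intima. For both, the adventitia libraries lay between a very low and a high intima library. Col15a1, a collagen that bridges basement membranes to fibrils, had 10.1, 19.6 and 11.9 in adventitia, against 14.6 and 0.101 in intima. Nid1, for the linker nidogen-1, had 4.16, 5.04 and 23.7 in adventitia, against 5.25 and 0.0504 in intima, the reverse order of intima libraries. Hspg2, for the heparan sulfate proteoglycan perlecan, had 36.5, 6.37 and 5.00 in adventitia, against 6.66 and 16.7 in intima, and overlapped.

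Pcolce and Mgp act on matrix rather than build it, and 0 of these 2 were called by edgeR, DESeq2 or voom, with 1 lower at an unadjusted p under 0.05. Pcolce, whose product speeds the trimming of procollagen, had 1.75, 27.0 and 27.1 normalised CPM in adventitia, against 8.31 and 265 in intima. Its log2 difference of -2.87 (adjusted p = 0.188, edgeR) turned to 1.09 without intima replicate 2. Mgp, for matrix Gla protein, an inhibitor of vessel calcification, was among the most abundant of the 58 genes per length, at 145, 159 and 294 RPKM in adventitia, against 250.3 and 34.2 in intima. Its normalised CPM were 74.8, 91.3 and 177 in adventitia, against 176 and 21.4 in intima (adjusted p = 0.911, edgeR), and the log2 difference of 0.22 turned to -0.70 without intima replicate 2.

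Of the 10 fibroblast surface and identity markers, 0 were called by edgeR, with 5 higher and 2 lower at an unadjusted p under 0.05, and DESeq2 called 4 higher and voom 3. In 6 of the 10 every adventitia library was above, where the share over all genes was 23.2%, and in 2 every one was below, where it was 17.7%. Ly6a, for the cell-surface protein Sca-1 that marks adventitial progenitor cells and some endothelium, was the most abundant of the 58 genes in adventitia per length, at 69.7, 344 and 355 RPKM in adventitia, against 9.20 and 0.960 in intima. Its normalised CPM were 72.4, 397 and 430.0 in adventitia, against 13 and 1.21 in intima (log2 difference 5.41 ± 1.13 SE, adjusted p = 0.0645, edgeR). It passed with scaling by total reads alone (0.0466), with the 1 CPM filter (0.0353), without a filter (1.33e-08) and with the replicate block (4.11e-06), as adjusted p-values of edgeR. It did not pass with upper-quartile scaling (0.0512), DESeq2 size factors (0.0604), thinning (0.0593) or any adventitia library left out, again with edgeR. DESeq2 called Ly6a higher (adjusted p = 6.6e-06) and voom did not (adjusted p = 0.0827). The adjusted p ranged between 1.33e-08 and 0.215 over the alternatives. Ly6a belongs to a family of closely similar genes, so its reads may be partly shared with relatives.

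Pdgfra, for the growth factor receptor used to define fibroblasts, had 1.53, 20.5 and 6.30 normalised CPM in adventitia, against 0.235 and 0 in intima, from 3 intima reads. The pooled level was 124 times higher in adventitia (95% counting interval 42.3 to 599), with an adjusted p of 0.166 (edgeR). Pdgfrb, the related receptor that marks pericytes and smooth muscle as well, had 3.72, 4.38 and 4.40 in adventitia, against 18 and 20.7 in intima (adjusted p = 0.362, edgeR). The receptors thus lay on opposite sides, each without overlap. Gpc3, for the surface proteoglycan glypican-3, had 14.2, 5.14 and 23.6 in adventitia, against 0.157 and 0 in intima, from 2 reads, a pooled ratio of 231 (95% counting interval 63.9 to 1907). Dpep1, for a membrane dipeptidase, had 12.3, 0.856 and 11.1 in adventitia, against 0.0784 and 0.0504 in intima, from 2 reads (ratio 114, interval 31.7 to 945). Clec3b, for the plasminogen-binding protein tetranectin, had 1.09, 1.90 and 0.50 in adventitia, against 0 and 0.0504 in intima, from a single read (ratio 39.0, interval 7.0 to 1542). All 3 were near absent from intima and at low to moderate levels in adventitia.

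Thy1, for the surface protein CD90 of fibroblasts and T cells, had 2.84, 9.13 and 2.00 normalised CPM in adventitia, against 0.0784 and 1.61 in intima, without overlap. Pi16, a marker of adventitial fibroblasts, had 3.06, 9.61 and 16.5 in adventitia, against 0.549 and 12.2 in intima, and overlapped. Cd34, a sialomucin that both fibroblasts and endothelium carry, had 1.09, 9.04 and 23.4 in adventitia, against 70.6 and 82.7 in intima (adjusted p = 0.147, edgeR). It was lower in every adventitia library, unlike the fibroblast markers Pdgfra and Thy1. Gsn, for the actin-severing protein gelsolin, which macrophages also make, had 144, 111 and 273 in adventitia, against 110.4 and 1163 in intima. Its log2 difference of -1.86 (adjusted p = 0.173, edgeR) rested on intima replicate 2 and was 0.58 without it.

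**Figure D4:**
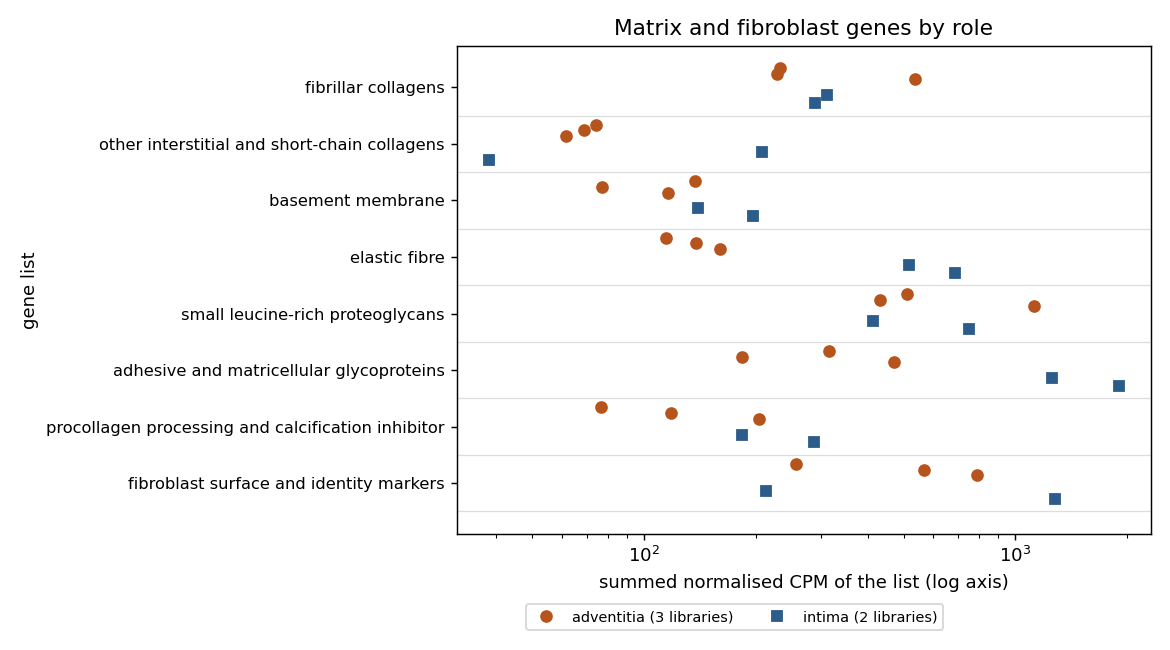
Summed normalised CPM of the genes of each role (log axis) in the 3 adventitia libraries (circles, upper in each row) and the 2 intima libraries (squares, lower). Elastic fibre genes and adhesive glycoproteins sum to less in every adventitia library than in either intima library, and fibrillar collagens and small proteoglycans overlap.

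The order of abundance within the set, taken per transcript length from group means, differed between the layers. By mean RPKM the leading genes were Ly6a, Dcn, Mgp, Gsn and Lum in adventitia, against Gsn, Sparc, Mgp, Fstl1 and Bgn in intima. These orders did not hold in every library. In intima replicates 1 and 2, Gsn had 31.6 and 373 RPKM, and Mgp had 250 and 34.2. In adventitia replicate 1, Ly6a had 69.7 RPKM, below Dcn at 164. Lum held rank 5 of 58 in adventitia and rank 39 in intima, Ogn rank 8 and rank 55, and Mfap4 rank 10 and rank 58. Fbln2 held rank 49 in adventitia and rank 10 in intima, and Eln rank 55 and rank 19. At 10 normalised CPM or more, 25, 23 and 35 of the 58 genes were present in adventitia, against 26 and 29 in intima, while 1, 0 and 1 had no read in adventitia, against 4 and 10 in intima.

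The libraries of each group differed among themselves. In adventitia, replicate 3 held the highest level for 34 of the 58 genes, replicate 1 for 11 and replicate 2 for 13. In intima, replicate 1 was the higher for 31 and replicate 2 for 27. Between the intima libraries 26 genes differed over 10-fold or were at 0 in a library, against 14 across the adventitia libraries. After thinning to equal depth, 5 of the 33 genes that reached 10 CPM in an intima library were under 0.5 CPM in the other (15.2%), namely Col5a1, Col15a1, Lamb1, Lama4 and Prelp. The share over all genes was 14.5%, close to that of this set. Neighbouring genes did not always go together: Ogn was above in every adventitia library, while Aspn, 40.5 kb away on chromosome 13, overlapped, and Lum and Dcn were both above.

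Counts for genes of the same pathways outside the 58 are set against the shares over all genes. These were 0.671% in either direction with edgeR, so 0 calls in lists of this size do not set them apart. DESeq2 called 5.22% of all genes higher and 3.65% lower, and voom 4.66% and 1.6%. Of 32 further matrix genes 29 were tested and 0 called by edgeR, while 10 were higher and 1 was lower at an unadjusted p under 0.05, DESeq2 called 3 higher and 1 lower, and voom called 3 higher. Thbs1, for thrombospondin-1, the most abundant of these, had 166, 92.1 and 53.8 normalised CPM in adventitia, against 1076 and 293 in intima (adjusted p = 0.0864, edgeR). Of 22 enzymes and chaperones of collagen synthesis 19 were tested and 0 called by edgeR, with 2 higher and 4 lower at an unadjusted p under 0.05, while DESeq2 called 1 lower and voom 1 in each direction. Their median log2 difference was -1.04, where the median over all genes was -0.14. Their most abundant gene, Ppib, for a prolyl isomerase, had 109, 61.8 and 102 in adventitia, against 186 and 114 in intima. Of 24 receptors for matrix, such as integrins and syndecans, 22 were tested and 0 called by edgeR, with 3 higher and 3 lower at an unadjusted p under 0.05, while DESeq2 called 1 higher and voom 2. Sdc4, for syndecan-4, led these, at 1014, 1712 and 1669 in adventitia, against 1245 and 1028 in intima.

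Among 29 other fibroblast markers, 24 were tested and 1 was called, higher in adventitia (0.149% over all genes). Igfbp5, for an insulin-like growth factor binding protein secreted by fibroblasts, rose in adventitia, with 28.7, 23.4 and 66.7 normalised CPM, against 0 and 0.0504 in intima, from a single intima read (adjusted p = 0.0239, edgeR). Its call was lost without adventitia replicate 1 (0.191) and without adventitia replicate 3 (0.143), as adjusted p-values of edgeR, with a range of 1.29e-08 to 0.191 over the alternatives. DESeq2 called 8 of the 24 higher (5.22% over all genes) and 2 lower (3.65%), and voom 9 higher (4.66%) and 1 lower (1.6%). In 12 of the 24, every adventitia library exceeded both intima libraries (23.2% over all genes), and in 3 every one was below (17.7% over all genes). The most abundant, Lsp1, for an actin-binding protein that leukocytes also make, was lower in every adventitia library, at 262, 332 and 235, against 1041 and 1053 in intima (adjusted p = 0.0588, edgeR). The markers Pdgfrl, Medag, Tcf21, Cygb and Has1 had no read in intima, and their levels in adventitia are not given here.

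Markers of other vessel wall cells differed between the groups too. The 12 endothelial markers summed to 48.1, 51.9 and 33.8 normalised CPM in adventitia, against 859 and 1026 in intima. Of the 10 tested, 4 were called lower (0.522% over all genes), Pecam1, Emcn, Vwf and Esam. Pecam1, for the endothelial junction protein CD31, had 3.28, 4.47 and 0.801 in adventitia, against 226 and 341 in intima (log2 difference -6.64 ± 0.75 SE, adjusted p = 0.00220, edgeR), and was not called without adventitia replicate 1 (adjusted p = 0.118, edgeR), with a range of 3.64e-15 to 0.118 over the alternatives. Emcn, for endomucin, had 1.75, 0.381 and 0.400 in adventitia, against 157 and 75.2 in intima (log2 difference -7.21 ± 0.98 SE, adjusted p = 0.00694, edgeR), with a range of 1.11e-11 to 0.0501 over the alternatives, the highest without adventitia replicate 1. Without that library Vwf and Esam were not called either (adjusted p = 0.215 and 0.165, edgeR). Of the 12 endothelial markers 9 were lower in every adventitia library than in either intima library (17.7% over all genes), as were Sparc, Fstl1, Fbln2 and Cd34. Another 2 were higher in every adventitia library (23.2% over all genes), of which 1 was tested, and 1 overlapped. Of the 14 smooth muscle and pericyte markers, which summed to 28.4, 11 and 17.1 in adventitia, against 319 and 111 in intima, 10 were tested and Tagln was lower. The sum rested on a few abundant markers: 3 of the 14 were below in every adventitia library and 7 were above in every one. Of the 10 tested, 3 were below (17.7% over all genes) and 4 above (23.2% over all genes). The median log2 difference of the 10 tested was -0.16, with 5 on each side of 0. Tagln, for the smooth muscle protein transgelin, had 0.656, 0.285 and 0.10 in adventitia, against 124 and 52.3 in intima (log2 difference -8.09 ± 1.10 SE, adjusted p = 0.00697, edgeR), with a range of 1.29e-12 to 0.118 over the alternatives, the highest without adventitia replicate 1. The pericyte marker Rgs5 had no read in intima, and its level in adventitia is not given here. The part of these cells in the results for matrix genes was not tested.

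Mesothelial markers did not go with the groups but with intima replicate 2. Krt18, for a keratin, had 0.656, 0.190 and 0.600 normalised CPM in adventitia, against 0.157 and 149 in intima, and Msln, for mesothelin, had 1.31, 0.476 and 0.50 in adventitia, against 0 and 185 in intima, while Upk3b, another mesothelial marker, had no read in intima. Gsn, Pcolce and Lamb1 were likewise high in that library, and the part of mesothelial RNA in them was not tested. Adipocyte markers summed to 6.56, 10.9 and 7.51 in adventitia, against 27.4 and 0.352 in intima, and Fabp4 carried most of the intima sum, while Adipoq, Cidec, Lep, Retn and Cfd had no read in intima. Schwann cell markers summed to 30.6, 15.8 and 17.2 in adventitia, against 24.1 and 12.0 in intima, mostly from Mbp, for myelin basic protein, while Sox10 and Cdh19 had no read in intima. Only 3 of 8 mesothelial, 2 of 7 adipocyte and 2 of 6 Schwann cell markers had enough reads to be tested. Having no read in intima therefore does not by itself place a gene higher in adventitia.

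**Figure D5:**
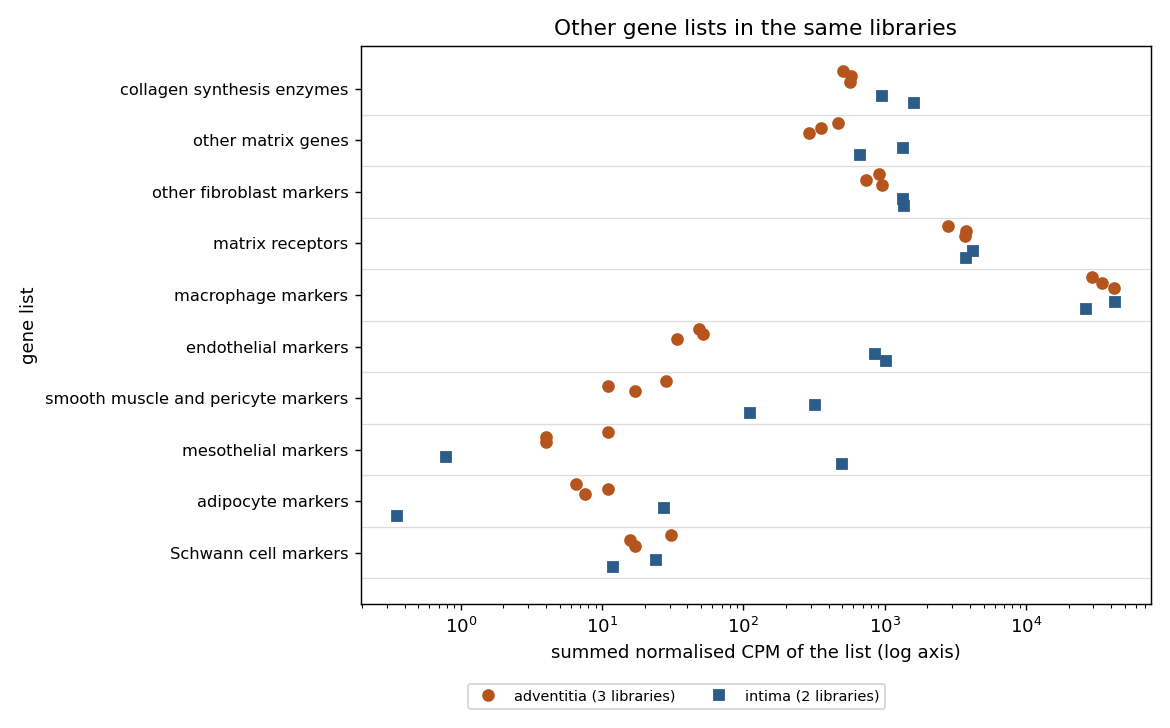
Summed normalised CPM (log axis) of gene lists outside the 58 genes, in the 3 adventitia libraries (circles, upper in each row) and the 2 intima libraries (squares, lower). Endothelial and smooth muscle markers sum to less in every adventitia library, macrophage markers overlap, and mesothelial markers are high in 1 intima library.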

How the data were processed

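Poly-A RNA of sorted cells was amplified with the SMARTer Ultra Low kit and sequenced as single reads of 50 bases, per the labels' protocols. The submitters' processing notes name GRCm38, STAR 2.0.4b, Subread and featureCounts 1.4.5, and the strand setting is not given in the sources used here, so reads from overlapping genes, antisense ones included, cannot be assigned with certainty: 13 of the 58 genes share an exon base with another gene, and none of the 5 called genes shares over 20% of its exon bases. The authors deposited for each library a table with the raw read count, the CPM and the RPKM of each gene, per the file headers, and the deposited CPM and RPKM follow from the counts within a relative tolerance of 1e-06. Symbols were matched to 40254 of the 41388 gene IDs.

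Deposited counts were tested with the quasi-likelihood test of edgeR 4.0.16 in R 4.3.3 (TMM scaling, filterByExpr by group with a minimum count of 10 and total of 15), with Benjamini-Hochberg adjustment over 13408 genes and no covariates. Normalised CPM use TMM library sizes, and the standard error is the log2 difference over the square root of F. RPKM compare genes with each other. A floor of 3 reads equals 0.761 CPM in the shallowest library and 0.144 in the deepest, and 95% intervals are exact Poisson and cover counting error only. On simulated counts for this comparison (12424 genes tested), 6% of 50 genes changed 4-fold were recovered, 46% at 16-fold, 56% at 64-fold and 76% at 256-fold, with 5 false calls of 97. The simulation gave both groups the same spread for each gene. In the data the common coefficient of variation was 0.703 in adventitia and 1.28 in intima, so these rates may not hold for them. Alternatives were DESeq2 1.42.0, voom of limma 3.58.1, other scalings and filters, thinning, a replicate block and each library left out, which left a lone intima library assumed to vary like the adventitia ones. Genes and lists were chosen with earlier results of these data known. Every one of the 58 genes is given; of other lists, up to 2 called genes per direction and the most abundant gene are named. The genes at 0 and those named beyond that rule, such as Msln, were chosen after their values were seen. Python 3.11.15, pandas 2.3.3, scipy 1.17.1 and matplotlib 3.10.9 were used for tables, intervals and figures.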

Additional observations from a re-analysis of the deposited data

How the results depend on the processing

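The genes called higher in adventitia, 2 with edgeR, numbered 13 with DESeq2, 10 with voom, 4 with scaling by total reads (0.254% of all genes), 6 without a filter on low counts (0.234%), 5 of 48 with a filter at 1 CPM (2.45%) and 6 with the replicate block (0.373%), and between 0 and 7 when a library was left out. Those called lower, 3 with edgeR, numbered 9 with DESeq2, 6 with voom, 9 without a filter (0.986%), 6 with the 1 CPM filter (1.27%) and 6 with the replicate block (0.992%). They numbered between 0 and 4 when an adventitia library was left out. The median log2 difference of the tested genes, 0.92, was 1.36 with upper-quartile scaling, 1.17 with scaling by total reads, 1.58 with voom, 0.30 with the 1 CPM filter and 1.68 with the replicate block, and between 0.29 and 1.87 without a library. The median of all genes itself moved, being -0.14 with TMM, 0.35 with upper-quartile scaling, 0.09 with total reads, 0.25 with voom, 0.24 with the replicate block, 0.54 without intima replicate 1 and 0.62 without intima replicate 2. Without a filter it was 1.86 and exceeded that of the set, 0.76, so the order of these medians turned. The deviations of same-numbered libraries from their group means had r = 0.0329 and 0.000629. With only 2 intima libraries, the deviations of 1 are the exact reverse of those of the other. These values therefore cannot decide whether the replicate numbers pair the samples. Without intima replicate 2, the sign turned for Col3a1, Pcolce, Mgp and Gsn, and without intima replicate 1 for Col14a1, the ranges over the libraries left out being -0.63 to 1.64 for Col3a1, -3.68 to 1.09 for Pcolce, -0.70 to 2.56 for Mgp, -2.59 to 0.58 for Gsn and -1.99 to 0.68 for Col14a1. Of 377 values for 27 single genes under the alternatives, 46 newly passed the threshold, 14 lost it and 5 were counted as turned. The other 312 were counted as unchanged. These included small changes of sign, as for Col3a1 without a filter (-0.09) and without adventitia replicate 3 (-0.31). Most of the 27 genes were not called at first, and only the 5 called genes could lose a call. The cause of these shifts was not tested. The difference in summed read share, -0.153 percentage points, stayed between -0.275 and -0.0323, and that in the share of summed RPKM was -0.0304. Depth limits the intima levels of Lum, Ogn, Dpt, Gpc3 and Mfap4, which rest on 5 or fewer reads.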
